A study of Homo sapiens with 24 samples.

Results

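The comparison of hypoxia with normoxia in HCT116 cells was taken from the RNA-seq counts of 6 of the 24 libraries in the series. Its members were chosen by their labels, namely the 3 libraries of HCT116 cells kept at 0.5% oxygen for 16 h (hypoxia) and the 3 libraries of HCT116 cells kept at 21% oxygen (normoxia), and no library of another cell line entered the fit. HCT116 is an established human colorectal carcinoma line, and the labels name no added gene or drug in either group, so oxygen is the only labelled difference between them. Polyadenylated RNA, prepared with a directional kit, was counted on 23106 gene symbols in each library, of which 13614 passed edgeR's filter on low counts and were tested. The study used these libraries to ask which genes respond to hypoxia across cancer cell lines. The labels number the replicates 1 to 3 without saying that they came from separate cultures, so the p-values measure the spread between these libraries, which may be technical.

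Cells sense oxygen through hypoxia-inducible factor (HIF), a dimer of an oxygen-regulated alpha subunit (HIF-1α or HIF-2α) with the constant partner ARNT. In normoxia, prolyl hydroxylases of the EGLN family mark the alpha subunits for capture by VHL and for proteasomal degradation, whereas in hypoxia the alpha subunits accumulate and bind DNA at the core letters RCGTG, where R is A or G. Known targets raise glucose uptake and glycolysis, restrain pyruvate entry into mitochondria, buffer acid, recruit vessels and feed back on HIF itself. In colorectal tumors, the carbonic anhydrase CA9 and the glucose transporter SLC2A1 are familiar markers of poorly oxygenated regions.

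Between 23497800 and 61798736 fragments were counted per library. Hypoxia replicate 3 was the shallowest, and the other 5 libraries held 50636883 or more. A count of 3 corresponded to between 0.0454 and 0.124 CPM (counts scaled to a common library total after TMM normalization), which limits what could be detected. Log2 CPM values of replicates correlated across genes with r between 0.975 and 0.984, where genes are not independent replicates. Of 18 intestinal epithelial markers, *EPCAM*, *CDH1*, *KRT8*, *KRT18* and *KRT19* were well expressed, while 10 were under 1 CPM in all 6 libraries and 5 of these 10 had no count. The well expressed genes named are general epithelial ones. All 10 under 1 CPM belong to the rest of the list, which holds the genes more particular to intestine. Of 15 lung, prostate and breast markers, 11 were under 1 CPM in all 6 libraries, and 9 had no count in any library. Another 2 were at 1 CPM or more in all 6, and the summed level of the 15 was between 9.86 and 11.2 CPM. Of 16 fibroblast, endothelial and leukocyte markers, 14 were under 1 CPM in all 6 libraries, and the summed level of the 16 was between 21.6 and 32.2 CPM in normoxia and between 28.0 and 62.3 CPM in hypoxia.

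The libraries also differed in a way that was tied to transcript composition. The fragments of the 10 most counted genes made up between 5.67% and 8.78% of a library, with the largest share in normoxia replicate 2, whose TMM factor of 0.861 lay apart from the range of 0.982 to 1.069 of the other 5 libraries. Among genes whose mean count reached 50, the median log2 fold change in hypoxia went from −0.61 in the quintile of transcripts with the lowest GC content to 0.46 in the quintile with the highest. Downregulated genes made up 51.9% of the lowest quintile and 9.70% of the highest, and upregulated genes 7.64% and 42.6%. By transcript length, the medians ran from −0.35 in the shortest quintile to 0.31 in the longest. A GC content and length correction, fitted in each library by splines, left medians between 0.02 and 0.07 in the quintiles of GC content and between 0.01 and 0.10 in those of length, and called 22.5% of the genes it could test upregulated and 21.6% downregulated. Of the calls that could be made in both fits, 1935 of 3085 upregulated genes (62.7%) and 2029 of 3255 downregulated genes (62.3%) were called in the same direction after it. Leaving out normoxia replicate 2, 20.5% of genes were upregulated and 19.6% downregulated. Whether the trend arose in the cells or in library preparation was not tested, and the counts and medians of the gene lists are given with and without the correction.

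**Figure D1:**
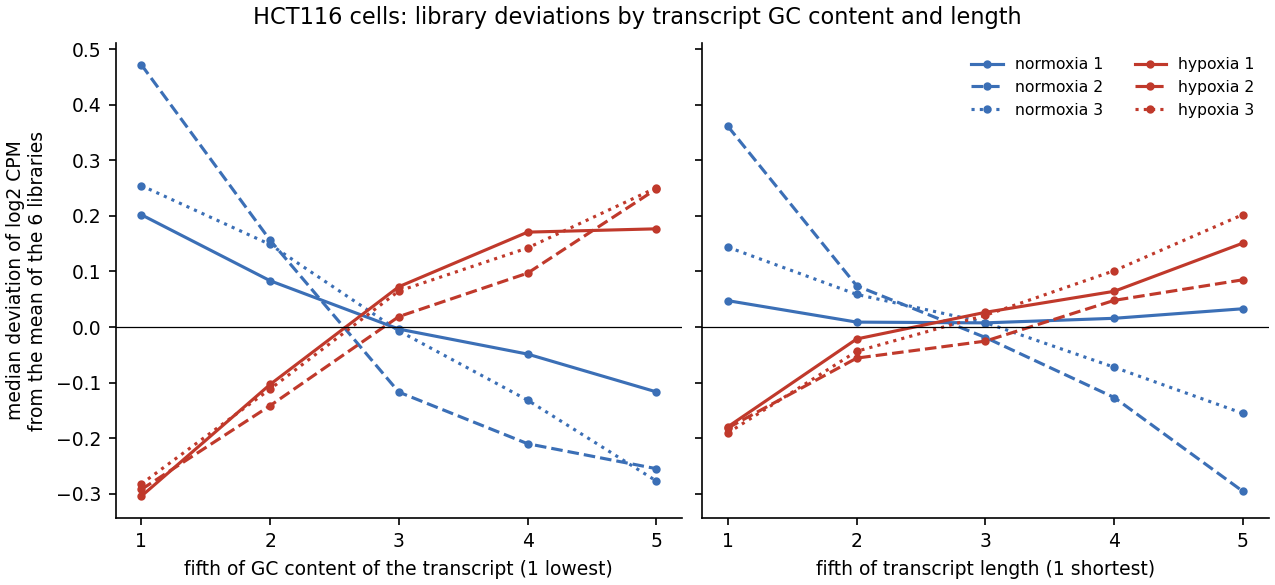
Median deviation of log2 CPM in each library from the mean of the 6 libraries (y axis), over genes whose mean count reached 50, split into quintiles of transcript GC content (left) and transcript length (right). In the quintile with the lowest GC content all 3 normoxic libraries (blue) lay above 0 and all 3 hypoxic libraries (red) below it, and normoxia replicate 2 had the largest deviation, at 0.47.

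Hypoxia changed 6846 genes (50.3% of those tested), of which 3170 (23.3%) were upregulated and 3676 (27.0%) downregulated, with calls made by edgeR's quasi-likelihood test at a Benjamini-Hochberg adjusted p below 0.05 together with a change exceeding 1.2-fold. The counts of every gene list below are to be read beside these shares, or beside 22.5% and 21.6% after the correction. Values of the 3 hypoxic libraries lay above all normoxic values for 28.2% of genes and below them for 32.1%. Changes of more than 2-fold were seen for 1284 upregulated genes (9.43%) and 2377 downregulated genes (17.5%). Each called gene was also tested in 6 further fits that left out 1 library each, and 2284 of the upregulated genes (72.1%) and 2398 of the downregulated genes (65.2%) were called in the same direction in all 6. Among called genes with a mean log2 CPM over 1 and no overlap between groups, the 10 largest increases included the HIF targets *CA9*, *NDRG1* and *SLC2A3*, the 10 largest decreases included noncoding transcripts such as *MIR17HG*, and 3 of the 5 largest losses of CPM among all called genes were in genes for ribosomal proteins. In bulk RNA, a change in the number of cells in a given state and a change in the RNA of each cell cannot be told apart.

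**Figure D2:**
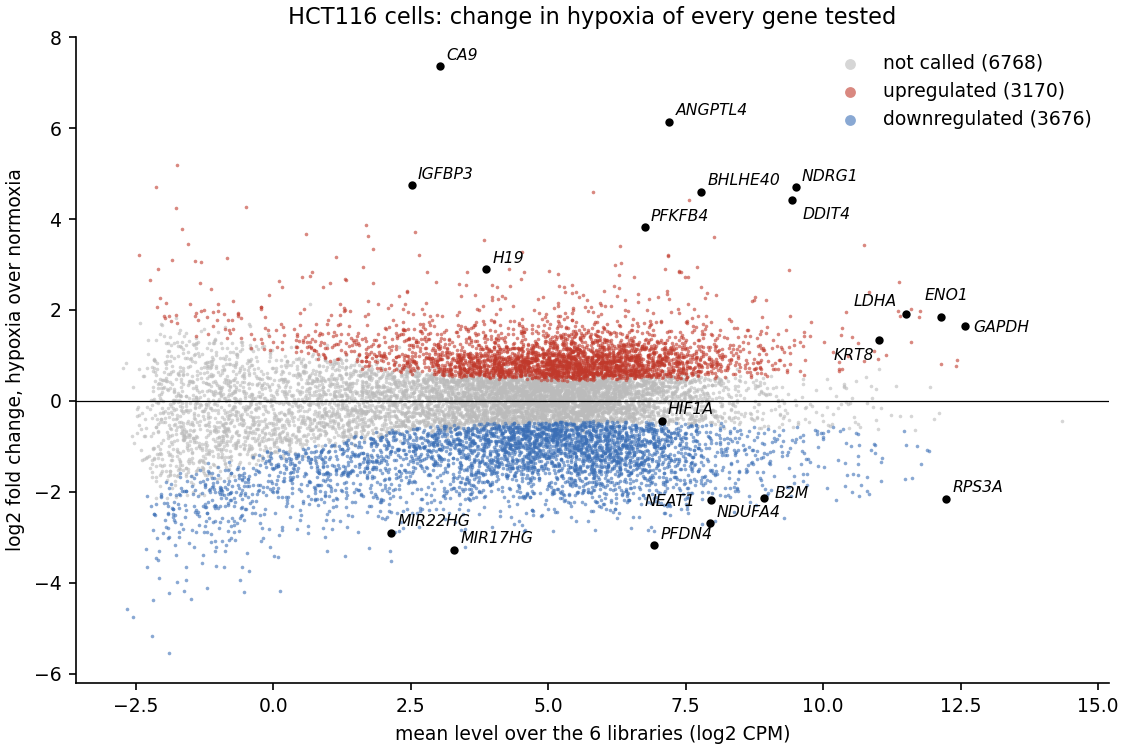
Log2 fold change in hypoxia (y axis) against the mean log2 CPM over the 6 libraries (x axis) for the 13614 genes tested, with upregulated genes in red, downregulated genes in blue and others in gray. *CA9* is the highest point at 7.37, and among genes of high level *GAPDH* and *ENO1* lie above 0 and *RPS3A* below it.

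The promoters of 4 of the 5 genes with the largest of these increases (*CA9*, *ANGPTL4*, *IGFBP3* and *BHLHE40*) are shown with the core letters that HIF binds marked. They are RefSeq sequences of GRCh38.p14, from 250 bases before to 50 bases after the start of the gene, written 5′ to 3′ along the gene, with ACGTG and GCGTG on either strand (CACGT and CACGC on the printed one) in capitals.
CA9, chr9:35673678-35673977, plus strand: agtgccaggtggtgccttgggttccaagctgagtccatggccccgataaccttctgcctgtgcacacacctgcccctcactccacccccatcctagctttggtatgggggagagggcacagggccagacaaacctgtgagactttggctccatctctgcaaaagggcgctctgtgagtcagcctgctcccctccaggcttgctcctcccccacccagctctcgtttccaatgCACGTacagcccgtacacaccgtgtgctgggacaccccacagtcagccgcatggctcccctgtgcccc
ANGPTL4, chr19:8363905-8364204, plus strand: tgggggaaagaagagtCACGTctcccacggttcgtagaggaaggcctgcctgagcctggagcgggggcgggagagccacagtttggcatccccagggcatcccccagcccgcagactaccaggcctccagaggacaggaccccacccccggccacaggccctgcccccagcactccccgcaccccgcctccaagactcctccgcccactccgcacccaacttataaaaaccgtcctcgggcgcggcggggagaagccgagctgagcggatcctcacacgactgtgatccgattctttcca
IGFBP3, chr7:45921223-45921522, minus strand: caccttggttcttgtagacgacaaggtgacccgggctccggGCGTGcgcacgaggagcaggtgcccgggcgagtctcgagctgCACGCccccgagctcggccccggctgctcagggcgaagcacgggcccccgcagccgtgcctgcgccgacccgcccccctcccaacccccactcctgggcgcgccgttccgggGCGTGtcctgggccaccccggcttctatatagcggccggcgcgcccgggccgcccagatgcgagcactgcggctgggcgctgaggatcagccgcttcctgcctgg
BHLHE40, chr3:4979187-4979486, plus strand: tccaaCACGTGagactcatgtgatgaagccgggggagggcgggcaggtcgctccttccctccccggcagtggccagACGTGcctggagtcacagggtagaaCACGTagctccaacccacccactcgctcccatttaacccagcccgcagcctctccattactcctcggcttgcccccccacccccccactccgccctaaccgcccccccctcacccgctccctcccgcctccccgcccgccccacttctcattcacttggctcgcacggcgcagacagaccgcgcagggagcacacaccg
In *CA9*, the only match starts 18 bases before the start of the gene. *BHLHE40* has 4 matches, of which the first 2 overlap in CACGTG, the E-box that other basic helix-loop-helix proteins also bind. The promoter of the other gene of the 5 is not shown, which says nothing about whether it holds a match. A match is common. All 8 promoters found for the 10 largest increases held ACGTG or GCGTG. Of the 10534 genes tested that had a promoter in the table, 63.1% held ACGTG or GCGTG, and so did 63.5% of upregulated and 63.8% of downregulated genes. For ACGTG alone the shares were 26.6% of all, 26.2% of upregulated and 27.2% of downregulated genes. Of the 41 promoters found for the 48 conserved HIF target genes, 21 (51.2%) held ACGTG and 32 (78.0%) held either motif. The study required HIF binding near these 48 genes, so their shares are not independent evidence about the motif. The median GC content of the promoters was 68.7% for upregulated, 63.0% for downregulated and 65.3% for all genes, and 69.7% for the 41.

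*CA9* (chromosome 9, 35673925 to 35681156 of GRCh37), which encodes a membrane carbonic anhydrase that acidifies the cell surroundings, had levels of 0.185, 0 and 0.0909 CPM in normoxia and 16, 17 and 16.1 CPM in hypoxia. The 3 normoxic values rest on 10, 0 and 6 counts, the groups did not overlap, and the hypoxic libraries differed little from each other (log2 fold change 7.37, SE 0.47, edgeR adjusted p = 2.28e-06; 95% interval 6.35 to 8.38). The secreted lipase inhibitor *ANGPTL4* (chromosome 19, 8428173 to 8439254 of GRCh37) had levels of 2.56, 3.49 and 6.21 CPM in normoxia and 90.2, 543 and 238 CPM in hypoxia (log2 fold change 6.14, SE 0.59, edgeR adjusted p = 3.26e-05). Its hypoxic values were lowest in replicate 1 and highest in replicate 2, and all lay above the normoxic ones. *IGFBP3* (chromosome 7, 45951844 to 45961473 of GRCh37), a carrier of insulin-like growth factors, had levels of 0.148, 0.275 and 0.772 CPM in normoxia and 3.77, 17.2 and 12.4 CPM in hypoxia (log2 fold change 4.74, SE 0.61, edgeR adjusted p = 0.00013), again with the lowest hypoxic value in replicate 1.

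*BHLHE40* (chromosome 3, 5021122 to 5027008 of GRCh37), a transcriptional repressor, had levels of 15.3, 15.4 and 21.3 CPM in normoxia and 257, 621 and 389.8 CPM in hypoxia (log2 fold change 4.61, SE 0.33, edgeR adjusted p = 4.89e-06). *DDIT4* (chromosome 10, 74033678 to 74035794 of GRCh37), an inhibitor of mTORC1 signaling, had levels of 30.6, 62.9 and 90.9 CPM in normoxia and 701, 2092 and 1159 CPM in hypoxia (log2 fold change 4.42, SE 0.46, edgeR adjusted p = 4.92e-05). In both genes and in *NDRG1*, hypoxia replicate 1 was the lowest and replicate 2 the highest of the hypoxic libraries, and no hypoxic value fell into the normoxic range. *PRDM1*, which encodes a transcriptional repressor of lymphoid and epithelial differentiation, had levels of 0.407, 0.596 and 0.242 CPM in normoxia and 2.98, 9.72 and 5.21 CPM in hypoxia (log2 fold change 3.87, SE 0.48, edgeR adjusted p = 0.000112). The remaining genes among the 10 largest increases were *SLC2A3*, *ALDOC* and *PFKFB4*, which belong to glucose metabolism and are described with it. All 10 genes stayed upregulated in each fit that left out 1 library and after the GC content and length correction.

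**Figure D3:**
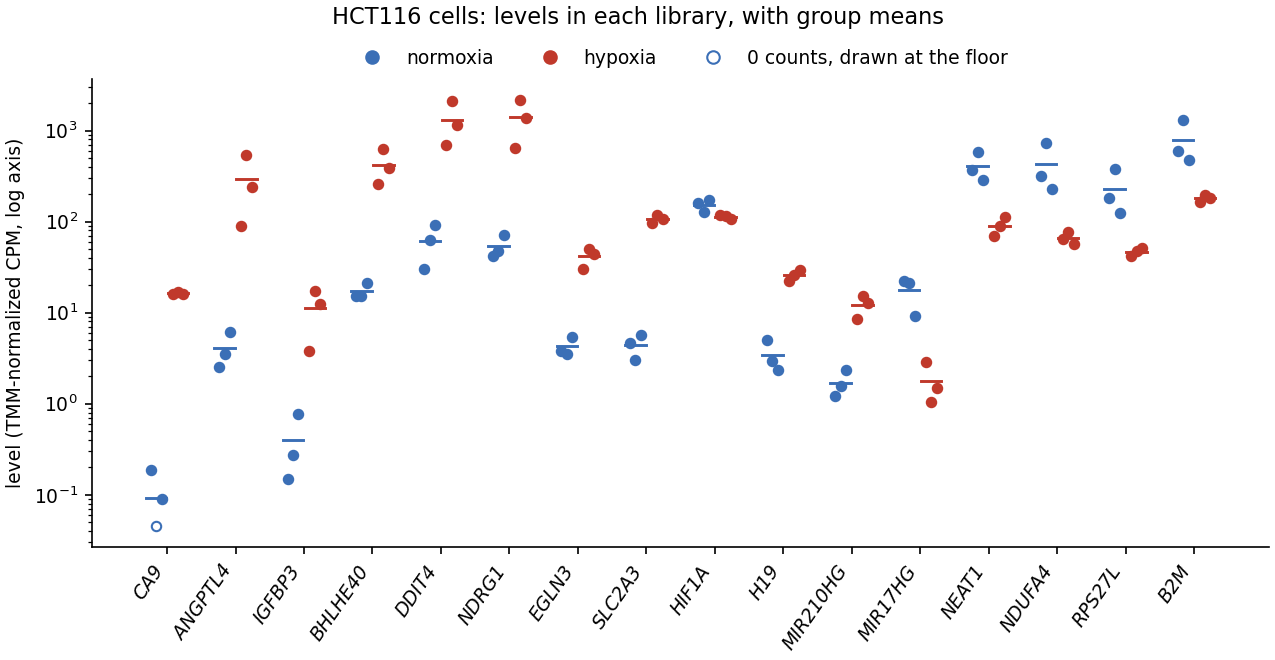
Levels of 16 genes in each library (y axis, TMM-normalized CPM on a log axis), with the 3 normoxic libraries in blue, the 3 hypoxic libraries in red and group means as lines. Values of the groups do not overlap in any gene shown, including *HIF1A*, whose groups lie closest, and the open symbol is the library with no *CA9* count.

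Among the HIF subunits and coactivators, 6 of 7 genes tested were upregulated and none was downregulated (median log2 fold change 0.82), where 23.3% of all genes tested were upregulated, 27.0% were downregulated and the median was −0.03. *EPAS1* (chromosome 2, 46520806 to 46613836 of GRCh37), which encodes HIF-2α, had levels of 12.9, 13.9 and 13.3 CPM in normoxia and 34.9, 75.3 and 55.8 CPM in hypoxia (log2 fold change 2.05, SE 0.25, edgeR adjusted p = 0.000108). *HIF1A* (chromosome 14, 62162231 to 62214977 of GRCh37), which encodes HIF-1α, had levels of 160.5, 127 and 173 CPM in normoxia and 117, 116 and 107 CPM in hypoxia, with all hypoxic values below the normoxic ones, but the difference was not past the threshold (log2 fold change −0.44, SE 0.19, edgeR adjusted p = 0.0743) and had the opposite sign after the correction (0.42, edgeR adjusted p = 0.122). Per kilobase of transcript, the mean level of *HIF1A* was 38.9 CPM in normoxia and 28.7 CPM in hypoxia and that of *EPAS1* 2.59 and 10.7 CPM. *CITED2*, a competitor of HIF for its coactivators, also rose (log2 fold change 1.6, SE 0.22, edgeR adjusted p = 0.000163), and *ARNT*, the constant partner, rose less (log2 fold change 0.66, SE 0.19, edgeR adjusted p = 0.0122). The coactivator genes *CREBBP* and *EP300* were upregulated by 1.33 and 0.80 on the log2 scale. After the correction, *EPAS1*, *CITED2* and *ARNT* were still called and *CREBBP*, *EP300* and *ARNT2* were not (median of the list 0.53). Without normoxia replicate 2, 5 members rose and 1 fell. The call of *EP300* was also lost without normoxia replicate 2 and normoxia replicate 3.

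The genes that end the HIF signal moved both ways (3 of 10 up, 4 down, median −0.05; after the correction 3 of 10 up, 3 down, median −0.31), and 2 were down without hypoxia replicate 3. The shares were 30.0% up and 40.0% down, beside 23.3% and 27.0% of all genes tested. After the correction they were 30.0% each, beside 22.5% and 21.6%. *EGLN3* (chromosome 14, 34393433 to 34931980 of GRCh37), a prolyl hydroxylase, had levels of 3.8, 3.55 and 5.45 CPM in normoxia and 30.3, 50.6 and 44.3 CPM in hypoxia (log2 fold change 3.28, SE 0.26, edgeR adjusted p = 1.03e-05). *EGLN1*, the main prolyl hydroxylase in most cells, had levels of 56.7, 40 and 55.4 CPM in normoxia and 227, 251 and 246 CPM in hypoxia (log2 fold change 2.25, SE 0.21, edgeR adjusted p = 2.42e-05), whereas *EGLN2* was not called (log2 fold change 0.51). Per kilobase of transcript, *EGLN2* had a mean level of 7.7 CPM in normoxia, between the 11.7 CPM of *EGLN1* and the 1.5 CPM of *EGLN3*, and in hypoxia it was the lowest of the 3, at 10.9 CPM against 55.7 and 14.6 CPM. *SIAH2*, a ubiquitin ligase that acts on the hydroxylases, rose (log2 fold change 1.25, SE 0.22, edgeR adjusted p = 0.000502). *VHL* and *HIF1AN*, the asparaginyl hydroxylase gene, were not called (log2 fold changes −0.29 and 0.19). Of the partners of VHL in its ubiquitin ligase complex, *TCEB1* fell by 1.56 and *RBX1* fell by 1.78 on the log2 scale, and both were still called after the correction, at −0.95 and −1.03. *TCEB2* and *CUL2* were downregulated with smaller changes (−0.75 and −0.69), which were lost without hypoxia replicate 3 and normoxia replicate 2 and without hypoxia replicate 2, hypoxia replicate 3 and normoxia replicate 3, respectively.

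All 48 genes of the conserved HIF target list were upregulated, with log2 fold changes from 0.83 (*CTDSP1*) to 6.14 (*ANGPTL4*). The study chose this list in part on these libraries, so the count is not independent evidence of direction. The same holds for its members counted in other lists, such as *EGLN1*, *P4HA1*, *PLOD2*, *KDM3A* and *KDM4B*. Within the conserved list, the median log2 ratio to the normoxic mean was 1.84 in hypoxia replicate 1, 2.46 in replicate 2 and 2.17 in replicate 3. After the correction, 47 of the 48 were called and *PDLIM2* was not, and the median stayed at 2.21. *HILPDA*, a lipid droplet protein often counted among HIF targets, was not called, at levels of 39.4, 60.9 and 32 CPM in normoxia and 31.5, 92 and 43.5 CPM in hypoxia (log2 fold change 0.34), and its groups overlapped.

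Genes of glucose metabolism rose with few exceptions. Of 15 genes of glucose uptake and upper glycolysis tested, 13 were upregulated and none was downregulated (median log2 fold change 2.62), and of 11 genes of lower glycolysis and lactate 8 were upregulated and none was downregulated (median 1.64). After the correction the numbers were 12 of 14 and 8 of 11, with medians of 2.59 and 1.60. Together the 28 counted genes of these lists took between 1.05% and 1.75% of the counted fragments of a normoxic library and between 4.26% and 5.13% of a hypoxic one. *GAPDH*, *ENO1*, *PKM* and *ALDOA*, glycolytic enzymes all, and *EEF2*, the translation elongation factor, had the 5 largest gains in CPM of any called gene. Members of both glycolysis lists, among them *SLC2A1*, *HK2*, *GPI*, *ALDOA*, *ENO1*, *PKM* and *LDHA*, are also in the conserved HIF target list. The study chose that list in part on these libraries, so the glycolysis counts are not independent evidence of direction.

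At the step of glucose entry, the transporter gene *SLC2A3* had levels of 4.68, 3.0 and 5.68 CPM in normoxia and 96.8, 119 and 108 CPM in hypoxia (log2 fold change 4.59, SE 0.26, edgeR adjusted p = 1.23e-06), and *SLC2A1* had levels of 183, 115 and 184 CPM in normoxia and 1167, 1147 and 1227 CPM in hypoxia (log2 fold change 2.88, SE 0.25, edgeR adjusted p = 1.6e-05). Neither overlapped between groups, and per kilobase of transcript *SLC2A1* remained the more abundant in hypoxia, at 349 CPM against 24.5 CPM. The hexokinase genes *HK2* and *HK1* rose by 3.61 (SE 0.35) and 2.86 (SE 0.24) on the log2 scale, and per kilobase their means were 6.94 and 10 CPM in normoxia and 84.7 and 72.9 CPM in hypoxia. *GPI*, the next enzyme, had levels of 329.7, 210.5 and 327 CPM in normoxia and 2369, 3990.4 and 3042 CPM in hypoxia (log2 fold change 3.44, SE 0.29, edgeR adjusted p = 1.58e-05). *PFKFB4*, whose product makes the allosteric activator of phosphofructokinase, had levels of 12.4, 13.2 and 17.2 CPM in normoxia and 173, 225 and 207 CPM in hypoxia (log2 fold change 3.82, SE 0.23, edgeR adjusted p = 1.23e-06), against a log2 fold change of 1.14 (SE 0.22) for its paralog *PFKFB3*. Of the phosphofructokinase genes, *PFKP* and *PFKL* rose by 2.28 and 2.02, and *PFKM* by 0.54 on the log2 scale. The call of *PFKM* was lost without hypoxia replicate 1, hypoxia replicate 2, hypoxia replicate 3 and normoxia replicate 2, each left out alone, and after the correction.

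Isoforms of one step had log2 fold changes of different size. *ALDOC*, an aldolase, had levels of 9.57, 12.8 and 27.8 CPM in normoxia and 235, 475 and 372 CPM in hypoxia (log2 fold change 4.43, SE 0.40, edgeR adjusted p = 2.08e-05), while *ALDOA* had levels of 764, 592 and 895 CPM in normoxia and 4147, 5227 and 4426 CPM in hypoxia (log2 fold change 2.62, SE 0.26, edgeR adjusted p = 3.41e-05). Both rose without overlap, and *ALDOA* stayed the more abundant per kilobase of transcript, at 1815 CPM against 209 CPM in hypoxia. *ENO2* had levels of 29.7, 36.4 and 32.7 CPM in normoxia and 153, 349.8 and 234 CPM in hypoxia (log2 fold change 2.9, SE 0.28, edgeR adjusted p = 3.26e-05), *ENO1* rose by 1.85 (SE 0.27) on the log2 scale, and *ENO3* was not called (−0.59). *LDHA*, the lactate dehydrogenase subunit that favors lactate formation, had levels of 1119.6, 1175 and 1364 CPM in normoxia and 4448, 4879.9 and 4409.6 CPM in hypoxia (log2 fold change 1.91, SE 0.23, edgeR adjusted p = 0.000101). Its counterpart *LDHB* had levels of 1282, 1854 and 1974 CPM in normoxia and 1334, 1337 and 1339 CPM in hypoxia and was not called (log2 fold change −0.35; 95% interval −0.85 to 0.15). Per kilobase of transcript, *LDHA* had 544 CPM against 1108 CPM for *LDHB* in normoxia and 2043 against 869 CPM in hypoxia, so the more abundant subunit differed between the groups. The lactate exporter gene *SLC16A3* rose (log2 fold change 1.86, SE 0.21, edgeR adjusted p = 8.9e-05), and the transporter gene *SLC16A1* was not called (log2 fold change 0.14; 95% interval −0.38 to 0.65).

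**Figure D4:**
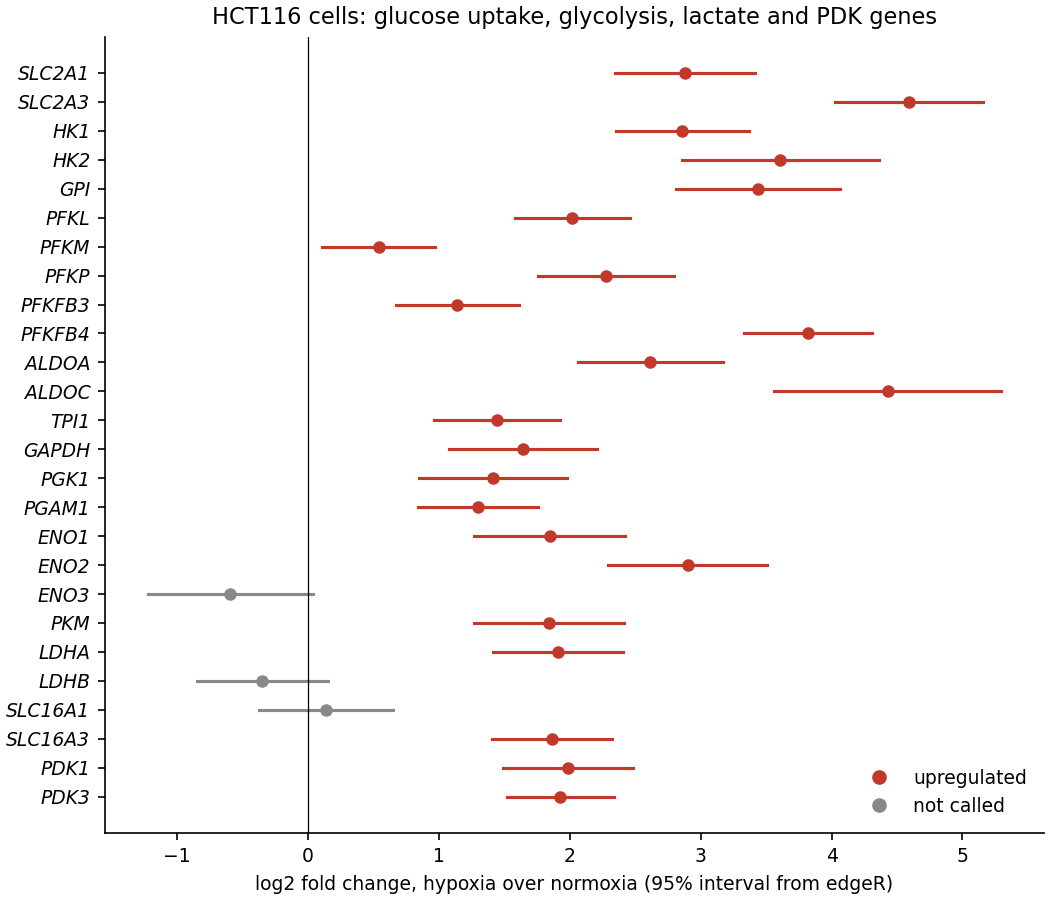
Log2 fold change in hypoxia (x axis) with its 95% interval from edgeR for genes of glucose uptake, glycolysis, lactate and pyruvate dehydrogenase kinases (y axis, in the order of the pathway), in red where upregulated and in gray where not called. The points of *SLC2A3*, *ALDOC* and *PFKFB4* lie farthest to the right, and the intervals of *ENO3*, *LDHB* and *SLC16A1* cover 0.

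Glycogen genes moved both ways (6 of 12 up, 2 down, median 0.64; after the correction 8 of 11 up, 1 down, median 0.73), and 1 was down without hypoxia replicate 1, hypoxia replicate 3, normoxia replicate 2 or normoxia replicate 3. The branching enzyme gene *GBE1* and the synthase gene *GYS1* rose by 2.73 (SE 0.25) and 2.34 (SE 0.23) on the log2 scale, with *PGM1* and *PPP1R3B* at 1.81 and 1.80, and *GYG1*, the primer of glycogen synthesis, had levels of 65.2, 108 and 77.1 CPM in normoxia and 37, 32.7 and 34.5 CPM in hypoxia (log2 fold change −1.26, SE 0.21, edgeR adjusted p = 0.000456). Genes of pyruvate dehydrogenase and the citrate cycle moved both ways (10 of 28 up, 10 down, median 0.13), shares of 35.7% each beside the 23.3% and 27.0% of all genes tested. The pyruvate dehydrogenase kinase gene *PDK1*, which restrains pyruvate oxidation, had levels of 15.3, 25.4 and 23.4 CPM in normoxia and 71.2, 101 and 81.2 CPM in hypoxia (log2 fold change 1.99, SE 0.23, edgeR adjusted p = 9.24e-05), and *PDK3* rose by 1.93 (SE 0.19). *SUCLG1* and *SUCLA2*, subunits of succinyl-CoA ligase, had log2 fold changes of −1.81 and −1.08, and *SDHC* and *SDHD* of succinate dehydrogenase of −1.37 and −1.5, whereas *SDHA*, *OGDH* and *IDH2* rose by 1.02, 1.26 and 1.64 on the log2 scale. After the correction, 13 genes of this list were up and 5 down (median 0.42), and *SDHD* was no longer called. Without hypoxia replicate 3, 5 genes of the list were down.

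Subunits of the respiratory complexes were mostly downregulated, with 56 of 76 down, 2 up (*ATP5D* and *NDUFV1*, neither without hypoxia replicate 2) and a median log2 fold change of −1.10 ± 0.06 (SD over the 3 hypoxic libraries). Complex II is not in this list, and each of the other complexes had more downregulated than upregulated genes. Genes were assigned to complexes by symbol, which puts *NDUFA4* in complex I and not in complex IV. In complex I, 29 of 39 genes were downregulated (median −1.02), in complex III 6 of 9 (−1.12), in complex IV 9 of 12 (−1.10) and in ATP synthase 12 of 16 (−1.29). *NDUFA4*, a small subunit first assigned to complex I, had levels of 321, 735 and 228 CPM in normoxia and 65.1, 76.1 and 57.2 CPM in hypoxia (log2 fold change −2.69, SE 0.36, edgeR adjusted p = 0.000155), and *COX7B* of complex IV had levels of 188, 435 and 138 CPM in normoxia and 42.1, 47.2 and 43.3 CPM in hypoxia (log2 fold change −2.52, SE 0.35, edgeR adjusted p = 0.000168). In both genes normoxia replicate 2 was the highest library, and the other normoxic libraries also lay above all hypoxic ones. Without normoxia replicate 2, 49 genes of the list were downregulated with a median of −0.76, where 19.6% of all genes tested were downregulated. After the GC content and length correction, 41 of 74 were downregulated and 6 upregulated with a median of −0.53, where 21.6% of all genes tested were downregulated.

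Genes for mitochondrial ribosomal proteins were also mostly downregulated, with 57 of 76 downregulated and 0 upregulated (median log2 fold change −1.12 ± 0.18, SD over the 3 hypoxic libraries). Of the large subunit 37 of 47 genes were downregulated (median −1.24) and of the small subunit 20 of 29 (−0.95). *MRPL13* had levels of 259, 452 and 207 CPM in normoxia and 69.3, 58.8 and 56.5 CPM in hypoxia (log2 fold change −2.31, SE 0.28, edgeR adjusted p = 0.000101), and *MRPS23* had levels of 453, 740.0 and 353 CPM in normoxia and 138, 102 and 119 CPM in hypoxia (log2 fold change −2.11, SE 0.28, edgeR adjusted p = 0.00014). Both fell without overlap, but after the correction the log2 fold change of *MRPL13* was −0.80 and that of *MRPS23* was −2.17. Over the list, 40 genes were downregulated and 3 upregulated after it (median −0.52), and 54 were downregulated without normoxia replicate 2 (median −0.90).

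Cytosolic ribosomal protein genes took between 12.2% and 18.9% of the fragments of a normoxic library, with the highest share in replicate 2, and between 7.41% and 9.34% of a hypoxic one. Of 85 tested, 53 were downregulated and 1 (*RPS2*) was upregulated (median log2 fold change −0.92 ± 0.18, SD over the 3 hypoxic libraries). The small subunit had 25 of 34 genes downregulated (median −1.17) and the large subunit 28 of 51 (−0.71). *RPS3A* had the largest loss of any called gene, with levels of 5486, 13395 and 4724 CPM in normoxia and 1479.5, 2167 and 1663 CPM in hypoxia (log2 fold change −2.15, SE 0.37, edgeR adjusted p = 0.000523), and *RPS6*, *TPT1*, *RPS14* and *PPIA* followed. *RPL22L1* and *RPS27L*, paralogs of standard ribosomal proteins, had log2 fold changes of −2.58 and −2.28, among the largest decreases of the list. *RPS2* had levels of 2886, 3669 and 3294 CPM in normoxia and 5114, 6622 and 5625 CPM in hypoxia (log2 fold change 0.82, SE 0.24, edgeR adjusted p = 0.0118), and its call was lost without hypoxia replicate 2. Without normoxia replicate 2 the numbers were 42 down and 2 up with a median of −0.51, and after the correction 38 of 84 down and 5 up with a median of −0.53. Many ribosomal protein genes have near-identical processed pseudogenes, and fragments without a unique position had been removed, so these counts are uncertain.

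Of 10 carbonic anhydrase and pH control genes, *CA9* among them, 3 rose and 1 fell (median 0.07; after the correction 2 of 10 up, 1 down, median 0.27), shares of 30.0% and 10.0% beside the 23.3% and 27.0% of all genes tested. Secreted factors rose in 13 of 20 genes and fell in 3 (median 1.08; after the correction 13 of 19 up, 3 down, median 0.81). *VEGFA*, the main vessel growth factor, had levels of 48.1, 52 and 38.6 CPM in normoxia and 102, 176 and 129.5 CPM in hypoxia (log2 fold change 1.55, SE 0.23, edgeR adjusted p = 0.000215), with a log2 fold change of 0.70 after the correction. *ADM*, the vasodilator adrenomedullin, had levels of 43.8, 46.1 and 51.4 CPM in normoxia and 198, 451 and 281 CPM in hypoxia (log2 fold change 2.72, SE 0.28, edgeR adjusted p = 4.88e-05), and *STC2* and *PDGFA* rose by 2.73 and 1.94 on the log2 scale. *EFNA1* fell by 1.08 and *EFNA3* rose by 1.37, although both encode ephrin-A ligands. Enzymes that modify collagen rose in 8 of 12 genes and fell in 1, *LOX* (median 1.32; after the correction 6 of 10 up, 0 down, median 1.41). The call of *LOX*, a lysyl oxidase, was lost without hypoxia replicate 1, hypoxia replicate 2, hypoxia replicate 3, normoxia replicate 1 and normoxia replicate 2, each left out alone. The lysyl hydroxylase gene *PLOD2* had levels of 22.3, 26.2 and 37.4 CPM in normoxia and 196, 309 and 284 CPM in hypoxia (log2 fold change 3.2, SE 0.26, edgeR adjusted p = 1.48e-05), the prolyl hydroxylase gene *P4HA1* had levels of 34.2, 35.1 and 54 CPM in normoxia and 191, 398 and 286 CPM in hypoxia (log2 fold change 2.83, SE 0.29, edgeR adjusted p = 4.82e-05), and *LOXL2* rose by 3.40 (SE 0.30). *PLOD2* and *P4HA1* had larger changes after the correction, at 3.9 and 3.44.

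Of the genes for mitophagy and the BCL2 family, 10 of 19 rose and 2 fell (median 0.62; after the correction 8 of 18 up, 1 down, median 0.63). The mitophagy receptor gene *BNIP3* had levels of 42.6, 49.1 and 52.6 CPM in normoxia and 347, 397 and 369 CPM in hypoxia (log2 fold change 2.95, SE 0.21, edgeR adjusted p = 4.89e-06), and its paralog *BNIP3L* had levels of 34, 85.8 and 77.4 CPM in normoxia and 287, 470.3 and 356 CPM in hypoxia (log2 fold change 2.5, SE 0.32, edgeR adjusted p = 0.000131). The receptor gene *FUNDC1* fell by 1.44 on the log2 scale but was not called after the correction (0.09). Targets of p53, which HCT116 cells carry in wild-type form, were upregulated in 12 of 29 cases and downregulated in 8 (median 0.05). These were 41.4% and 27.6%, beside 23.3% and 27.0% of all genes tested. After the correction 12 targets were up and 3 down (41.4% and 10.3%, median 0.22), beside 22.5% and 21.6% of all genes tested. *GDF15* had levels of 45.9, 79.6 and 104 CPM in normoxia and 168, 599 and 419 CPM in hypoxia (log2 fold change 2.37, SE 0.40, edgeR adjusted p = 0.00046), and the cell cycle inhibitor gene *CDKN1A* had levels of 94.4, 114 and 157 CPM in normoxia and 213, 427 and 368 CPM in hypoxia (log2 fold change 1.46, SE 0.28, edgeR adjusted p = 0.00089). The death receptor gene *FAS* had levels of 42, 74.5 and 37.9 CPM in normoxia and 12.7, 14.4 and 18.2 CPM in hypoxia (log2 fold change −1.78, SE 0.26, edgeR adjusted p = 0.000215). Of the BH3-only genes, *BBC3* rose by 1.61 and *PMAIP1* fell by 1.16 on the log2 scale, the latter with no call after the correction (0.13). *PINK1*, a kinase that starts another route of mitophagy, rose by 1.6.

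Immediate early genes, which respond within minutes to growth factors and stress, rose in 25 of 27 cases and fell in none (median 1.52), and 23 of 26 were upregulated after the correction (median 1.38). The AP-1 gene *JUN* had levels of 9.57, 7.59 and 10.2 CPM in normoxia and 61.8, 60.5 and 68.6 CPM in hypoxia (log2 fold change 2.8, SE 0.20, edgeR adjusted p = 4.89e-06) and *FOSL2* had levels of 24.9, 11.9 and 15.4 CPM in normoxia and 127, 154 and 145 CPM in hypoxia (log2 fold change 3.03, SE 0.27, edgeR adjusted p = 1.79e-05), with *EGR3* and *JUND* at 2.95 and 2.41. *FOS* itself had levels of 5.15, 4.77 and 5.57 CPM in normoxia and 8.06, 23.3 and 13 CPM in hypoxia (log2 fold change 1.52, SE 0.32, edgeR adjusted p = 0.0019). *DUSP1*, *DUSP5*, *KLF4* and *EGR1* rose by 2.08, 2.01, 1.99 and 1.94. The list's median in hypoxia replicate 2 (2.15) was higher than in replicates 1 (1.01) and 3 (1.46), a wider spread than that of any other list. *SPRY2* and *SPRED1* were not called.

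Regulators of MYC and of the circadian clock were represented among the increases. *MYC* had levels of 346, 188 and 239 CPM in normoxia and 557, 531 and 540.0 CPM in hypoxia (log2 fold change 1.08, SE 0.24, edgeR adjusted p = 0.00253), and the genes for the MYC antagonists *MXD1*, *MNT*, *MXI1* and *MXD4* rose by 1.96, 1.81, 1.67 and 1.52, whereas *MLX* and *MLXIPL* had log2 fold changes of −1.12 each, the latter with no call without normoxia replicate 2. The list of MYC and MAX network genes had 6 of 12 up and 2 down (median 0.73; after the correction 6 of 12 up, 2 down, median 0.47). Of 16 clock genes, 10 rose and 2 fell (median 0.76; after the correction 6 of 15 up, 1 down, median 0.48), and 0 were down without any 1 of the hypoxic libraries and 1 without any 1 of the normoxic libraries. The increases were led by *BHLHE40*, *BHLHE41* (2.21), *PER1* (2.09) and *NR1D1* (1.92). Of 25 histone and DNA demethylase genes, whose products use oxygen, 16 rose and 0 fell (median 0.85). *KDM3A* had levels of 26.2, 25.3 and 34.8 CPM in normoxia and 173, 334 and 274 CPM in hypoxia (log2 fold change 3.18, SE 0.27, edgeR adjusted p = 1.53e-05) and *KDM4B* had levels of 19.8, 13.9 and 16.3 CPM in normoxia and 104, 149 and 144 CPM in hypoxia (log2 fold change 2.99, SE 0.23, edgeR adjusted p = 6.94e-06), with *KDM5B* and *KDM4C* at 2.04 and 1.91. After the correction 14 of these genes were up and 1 was down (median 0.60), and without hypoxia replicate 1 there was also 1 down.

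Of 9 intestinal epithelial markers tested, 6 rose and 1 fell (median 0.64; after the correction 4 of 8 up, 1 down, median 0.71), with 0 down without normoxia replicate 2, while *EPCAM* was not called (log2 fold change −0.45). *CDH1*, which encodes E-cadherin, had levels of 21.9, 21.5 and 24.4 CPM in normoxia and 62, 140.3 and 99.3 CPM in hypoxia (log2 fold change 2.15, SE 0.26, edgeR adjusted p = 0.000105), and *KRT19*, *KRT18* and *KRT8* rose by 1.61, 1.42 and 1.35 on the log2 scale, all without overlap. None of these genes is particular to intestine. Over epithelial junction and mesenchymal genes, 15 of 25 rose and 1 fell (median 0.90; after the correction 16 of 23 up, 0 down, median 0.76), and the number down was between 0 and 2 when 1 library was left out, at 2 without hypoxia replicate 2 and at 0 without hypoxia replicate 1, hypoxia replicate 3, normoxia replicate 1 or normoxia replicate 3. The laminin and integrin genes *LAMB3* and *ITGB4* had log2 fold changes of 2.77 (SE 0.36) and 2.22 (SE 0.30), the urokinase receptor gene *PLAUR* 2.31 (SE 0.34), and the fibronectin gene *FN1* 1.32 (SE 0.24). Of Wnt targets and crypt genes, 8 of 16 rose and 1 fell (median 0.50; after the correction 6 of 14 up, 1 down, median 0.28), with 0 down without hypoxia replicate 1, hypoxia replicate 3, normoxia replicate 1 or normoxia replicate 2. *SOX9*, a crypt transcription factor, had levels of 69.1, 55.5 and 59.2 CPM in normoxia and 165, 289.8 and 263 CPM in hypoxia (log2 fold change 1.97, SE 0.24, edgeR adjusted p = 0.000101). *AXIN2*, a widely used Wnt readout, was not called (log2 fold change −0.45; 95% interval −1.2 to 0.31). In the fibroblast, endothelial and leukocyte list, *CD68*, a lysosomal gene used as a macrophage marker, had levels of 5.46, 5.37 and 5.92 CPM in normoxia and 15.3, 40.4 and 22.1 CPM in hypoxia (log2 fold change 2.22, SE 0.31, edgeR adjusted p = 0.000167).

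Genes of the cholesterol synthesis list rose in 16 of 28 cases and fell in 2 (median 0.66), and after the correction 19 rose and 0 fell (median 0.83). The number down was 1 without hypoxia replicate 1 or 2 and 0 without hypoxia replicate 3 or normoxia replicate 2. The feedback regulator genes *INSIG2* and *INSIG1* rose, with levels of 14, 19.2 and 22.2 CPM in normoxia and 55.5, 116 and 86 CPM in hypoxia for *INSIG2* (log2 fold change 2.22, SE 0.27, edgeR adjusted p = 0.000105) and a log2 fold change of 2.14 (SE 0.22) for *INSIG1*. *SREBF2*, a transcription factor that activates sterol genes, rose by 1.63. Fatty acid genes rose in 12 of 28 cases and fell in 4 (median 0.45; after the correction 13 of 27 up, 5 down, median 0.44), and 2 fell without hypoxia replicate 1, hypoxia replicate 3, normoxia replicate 2 or normoxia replicate 3. The synthase gene *FASN* had levels of 897, 509 and 349 CPM in normoxia and 3091, 3115 and 3007 CPM in hypoxia (log2 fold change 2.39, SE 0.32, edgeR adjusted p = 0.000149) and the desaturase gene *SCD* had levels of 1096, 909 and 1186 CPM in normoxia and 3491, 4758 and 4374 CPM in hypoxia (log2 fold change 1.98, SE 0.24, edgeR adjusted p = 0.000105), neither with overlap, and *FASN* was at 1.33 after the correction.

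Lists of stress and growth control had members that rose and members that fell. Targets of ATF4 were up in 14 of 30 cases and down in 5 (median 0.43), with *CEBPB* and *PPP1R15A* at 1.2 and 1.1 and *PSPH* at −1.13, and 8 of 27 were up and 2 down after the correction (median 0.33). Without hypoxia replicate 1, hypoxia replicate 3, normoxia replicate 2 or normoxia replicate 3, 3 were down. Of the ATF4 targets 46.7% were up and 16.7% down, beside 23.3% and 27.0% of all genes tested. Of 23 endoplasmic reticulum folding genes, 8 rose and 3 fell (median 0.33; after the correction 9 of 23 up, 2 down, median 0.40), with 5 up without hypoxia replicate 2 or 3, and the oxidase genes *ERO1L* and *ERO1LB* went in opposite directions (1.52 and −1.61). Of 24 heat shock genes, 5 rose and 4 fell (20.8% and 16.7%, beside 23.3% and 27.0% of all genes tested), with a median of −0.18 that turned to 0.20 after the correction, when 6 of 23 were up and 1 was down. Without hypoxia replicate 3, 3 were up and 1 was down, and 3 were up without hypoxia replicate 2. Genes of mTORC1 restraint and growth control rose in 9 of 21 cases and fell in 3 (median 0.63), with *IRS2* at 2.24 and *RHEB*, the mTORC1 activator, at −1.19 before the correction. Their shares were 42.9% up and 14.3% down, beside 23.3% and 27.0% of all genes tested. After the correction 6 of 21 (28.6%) were up, where 22.5% of all genes tested were, and the median was 0.18. Of 18 iron and heme genes, 4 rose and 4 fell (median 0.09; after the correction 7 of 18 up, 5 down, median 0.02), shares of 22.2% each beside the 23.3% and 27.0% of all genes tested, and the iron exporter gene *SLC40A1* had levels of 2.0, 3.99 and 2.7 CPM in normoxia and 0.91, 0.517 and 0.455 CPM in hypoxia (log2 fold change −2.16, SE 0.42, edgeR adjusted p = 0.000988). NF-kB genes were up in 7 of 21 cases and down in 3 (median 0.23; after the correction 6 of 18 up, 2 down, median 0.36), with *TNIP1* at 2.48. Their shares were 33.3% up and 14.3% down, beside 23.3% and 27.0% of all genes tested. Of 26 genes of interferon response and antigen presentation, 5 rose and 4 fell (median −0.06; after the correction 3 of 22 up, 5 down, median 0.11), 19.2% and 15.4% beside 23.3% and 27.0% of all genes tested, and 3 rose without hypoxia replicate 2 and 7 fell without normoxia replicate 1. *B2M*, the light chain of MHC class I, had levels of 599, 1299 and 478 CPM in normoxia and 165, 196 and 180.5 CPM in hypoxia (log2 fold change −2.13, SE 0.33, edgeR adjusted p = 0.000257) and *IFIT1*, an interferon-induced gene, had levels of 4.26, 14.5 and 12 CPM in normoxia and 1.47, 1.53 and 2.69 CPM in hypoxia (log2 fold change −2.47, SE 0.41, edgeR adjusted p = 0.000427), while the class I heavy chain gene *HLA-B* had a log2 fold change of 0.7, which was not called without hypoxia replicate 2.

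DNA replication genes moved both ways (10 of 46 up, 16 down, median −0.07; after the correction 7 of 46 up, 12 down, median 0.03). The shares were 21.7% up and 34.8% down, beside 23.3% and 27.0% of all genes tested. After the correction they were 15.2% and 26.1%, beside 22.5% and 21.6%. Of the replicative helicase, *MCM2* and *MCM5* rose by 1.19 and 0.86 on the log2 scale, the latter with no call after the correction, whereas the GINS genes *GINS2* and *GINS1* had log2 fold changes of −1.92 and −1.6 and the origin gene *ORC6* of −1.75. *PCNA*, the sliding clamp, had levels of 742, 939 and 561 CPM in normoxia and 359, 237 and 279 CPM in hypoxia (log2 fold change −1.36, SE 0.25, edgeR adjusted p = 0.000766). Of 30 mitotic genes 4 were up and 10 down (13.3% and 33.3%, median −0.20). After the correction 6 were up and 5 down (20.0% and 16.7%) and the median was 0.09, and 8 were up without normoxia replicate 1. *CDK1* and *CCNB1* had log2 fold changes of −1.54 and −1.35, with *CDK1* not called after the correction (−0.28). No DNA repair gene rose and 12 of 44 fell (27.3%, beside 27.0% of all genes tested; median −0.35), and 17 fell after the correction (median −0.31). *RAD51AP1* and *XRCC2*, which act in homologous recombination, had log2 fold changes of −1.94 and −1.86.

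RNA polymerase subunits fell in 15 of 30 cases and rose in 5 (median −0.73), and after the correction 10 of 29 fell and 2 rose (median −0.32). Without hypoxia replicate 1, 3 rose. The gene for the largest subunit of RNA polymerase II, *POLR2A*, had levels of 306, 167 and 128 CPM in normoxia and 679.7, 474 and 617 CPM in hypoxia (log2 fold change 1.56, SE 0.30, edgeR adjusted p = 0.000997). Of spliceosome and hnRNP genes, 21 of 50 fell and 16 rose (median −0.25). The small core proteins *SNRPG*, *SNRPB2*, *SNRPD2* and *SNRPD1* had log2 fold changes of −2.72, −1.93, −1.81 and −1.58, and the large scaffold protein gene *PRPF8* rose by 1.48. After the correction 10 genes of this list fell and 15 rose, and the median was 0.04. Of its members 42.0% fell and 32.0% rose, beside 27.0% and 23.3% of all genes tested. After the correction 20.0% fell and 30.0% rose, beside 21.6% and 22.5%. Ribosome biogenesis factors fell in 16 of 47 cases and rose in 8 (median 0.01), and 8 fell and 8 rose after the correction (median 0.04). The number that rose was 3 without hypoxia replicate 1 and 5 without hypoxia replicate 3 or normoxia replicate 2. Of the ribosome biogenesis factors 34.0% fell and 17.0% rose, beside 27.0% and 23.3% of all genes tested. After the correction 17.0% fell and 17.0% rose, beside 21.6% and 22.5%.

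Long noncoding RNAs and microRNA host transcripts had the lowest median of all lists, at −1.70, with 21 of 28 downregulated and 4 upregulated. Against the normoxic mean, the list medians of hypoxia replicates 1, 2 and 3 were −1.59, −1.42 and −1.67 (SD 0.13). After the correction 20 of 26 were downregulated and the median was −1.46, and without normoxia replicate 2 it was −1.26, with 19 downregulated. The microRNAs of 3 host transcripts that changed are shown with the seed (bases 2 to 8) in capitals, since the seed sets which messages a microRNA pairs with. They are RefSeq mature sequences, and only the host transcripts, not the microRNAs, were measured.
miR-210-3p (host MIR210HG): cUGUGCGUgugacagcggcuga
miR-17-5p (host MIR17HG): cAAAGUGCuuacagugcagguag
miR-20a-5p (host MIR17HG): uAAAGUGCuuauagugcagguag
miR-18a-5p (host MIR17HG): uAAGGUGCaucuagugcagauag
miR-19a-3p (host MIR17HG): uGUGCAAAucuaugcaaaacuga
miR-92a-3p (host MIR17HG): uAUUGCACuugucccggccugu
miR-22-3p (host MIR22HG): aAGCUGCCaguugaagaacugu
miR-17-5p and miR-20a-5p share the seed AAAGUGC, miR-18a-5p has the seed AAGGUGC, and the hypoxia-associated miR-210-3p has the seed UGUGCGU.

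*MIR17HG* (chromosome 13, 91999940 to 92049846 of GRCh37), the host of the miR-17-92 cluster that MYC activates, had levels of 22.4, 21.4 and 9.13 CPM in normoxia and 2.86, 1.05 and 1.49 CPM in hypoxia (log2 fold change −3.27, SE 0.41, edgeR adjusted p = 0.000113). *MIR22HG* (chromosome 17, 1614741 to 1620468 of GRCh37) had levels of 10.6, 7.66 and 4.74 CPM in normoxia and 1.04, 0.931 and 1.12 CPM in hypoxia (log2 fold change −2.9, SE 0.34, edgeR adjusted p = 8.99e-05). Both fell without overlap, and after the correction the log2 fold changes were −2.44 and −2.88. In the other direction, *MIR210HG* (host of miR-210) had levels of 1.2, 1.56 and 2.33 CPM in normoxia and 8.55, 15.2 and 12.7 CPM in hypoxia (log2 fold change 2.83, SE 0.31, edgeR adjusted p = 7.69e-05), the imprinted transcript *H19* (chromosome 11, 2016396 to 2025782 of GRCh37) had levels of 5.07, 2.94 and 2.36 CPM in normoxia and 22.2, 26.2 and 29.2 CPM in hypoxia (log2 fold change 2.9, SE 0.28, edgeR adjusted p = 3.41e-05) and *UCA1* rose by 2.22. The nuclear paraspeckle RNA *NEAT1* had levels of 371, 577 and 284 CPM in normoxia and 68.8, 89.6 and 113 CPM in hypoxia (log2 fold change −2.18, SE 0.28, edgeR adjusted p = 0.000137), and *MALAT1*, its neighbor on chromosome 11, fell by 1.26. All 8 hosts of small nucleolar RNAs in the list fell, with log2 fold changes from −2.65 (*SNHG12*) to −0.93 (*SNHG8*) and a median of −2.10, although *SNHG8* was not called without normoxia replicate 2 or after the correction. *GAS5* had levels of 172, 589 and 180.3 CPM in normoxia and 29.5, 88.7 and 53.2 CPM in hypoxia (log2 fold change −2.46, SE 0.47, edgeR adjusted p = 0.001).

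The rest of the 10 largest decreases were mostly in genes of low level. *PFDN4* (chromosome 20, 52824626 to 52844591 of GRCh37), a subunit of the prefoldin chaperone, was the most abundant of them, with levels of 181, 353 and 121 CPM in normoxia and 26.1, 23.6 and 22.9 CPM in hypoxia (log2 fold change −3.17, SE 0.33, edgeR adjusted p = 5.29e-05). *TNFSF18*, a ligand of the TNF family, had levels of 3.54, 6.4 and 3.23 CPM in normoxia and 0.622, 0.19 and 0.413 CPM in hypoxia (log2 fold change −3.41, SE 0.46, edgeR adjusted p = 0.00016), and *FAM227A* had levels of 7.41, 10.8 and 5.88 CPM in normoxia and 0.606, 0.724 and 0.786 CPM in hypoxia (log2 fold change −3.52, SE 0.33, edgeR adjusted p = 2.42e-05). The others were *KLRAP1*, *C12orf60*, *MARCH1* and *SUN3*, at −3.25 to −2.88, and *RPPH1*, the RNA component of RNase P, which had levels of 2.7, 18.1 and 2.74 CPM in normoxia and 0.862, 0.914 and 0.538 CPM in hypoxia with the highest value in normoxia replicate 2. It is not usually polyadenylated. Named genes with an exon that overlaps an exon of another counted gene on the opposite strand are uncertain, since the strand setting of the counting is not given in the sources used here. They include *KRT8*, *KRT18*, *CA9*, *RPS3A*, *HIF1AN*, *TCEB2*, *CUL2*, *PFKM*, *ENO3*, *SLC16A3*, *PGM1*, *GYG1*, *SUCLA2*, *MRPL13*, *LOX*, *BNIP3L*, *FAS*, *BBC3*, *MLX*, *BHLHE41*, *NR1D1*, *GINS2*, *GINS1*, *SNRPD2*, *SNHG12*, *SNHG8*, *GAS5* and *C12orf60*.

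**Figure D5:**
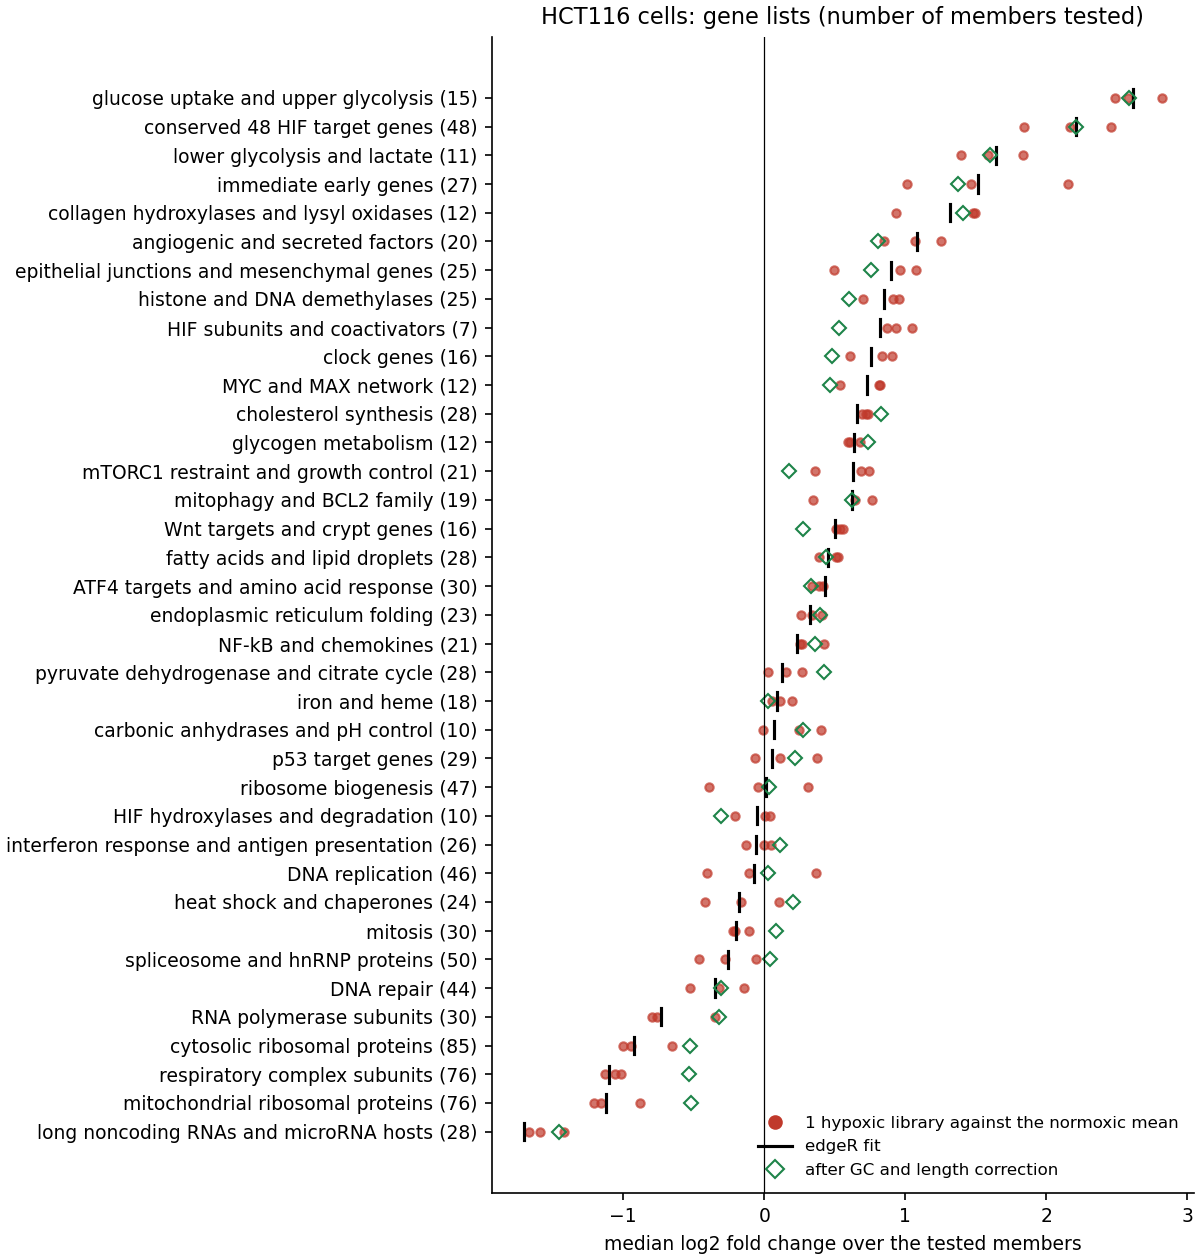
Median log2 fold change over the tested members of each gene list (x axis), with the number of members in parentheses, for each hypoxic library against the normoxic mean (red points), in edgeR (black bars) and after the GC content and length correction (green diamonds). Glycolysis and the 48 conserved genes, which share members, keep their medians after the correction. The medians of respiratory subunits and both groups of ribosomal proteins move from between −1.12 and −0.92 to between −0.53 and −0.52.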

How the data were processed

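RNA-seq was performed on polyadenylated RNA of HCT116 cells. Per the labels and the study's methods, the authors trimmed adaptors with Trim Galore 0.3.3, aligned to GRCh37 with HISAT2, removed fragments without a unique position with Picard 2.0.1 and counted the remainder per gene symbol with HTSeq 0.5.4p3. The deposited values are these raw counts of each library, not normalized, and those of the 6 HCT116 libraries were used.

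Here, counts were TMM-normalized, filtered with filterByExpr and tested with edgeR 4.0.16 in R 4.3.3 by the quasi-likelihood test with group as the single term. A gene was called at a Benjamini-Hochberg adjusted p under 0.05 with a fold change over 1.2. Each log2 fold change is hypoxia over normoxia, and its SE and 95% interval come from the same fit. An SD of a list median is over the list medians of the 3 hypoxic libraries, each against the normoxic mean. It leaves out the spread of the normoxic libraries and is not an error of the edgeR median. Levels per kilobase were divided by the length of the longest annotated transcript. Transcript length, GC content and GRCh37 coordinates came from the GENCODE annotation lifted to that build, which matched 21589 of 23106 symbols (93.4%), 1491 of them through older symbols. The correction for GC content and length used an offset per library from splines with 5 degrees of freedom, on genes with a mean count of 50 or more. Promoters and mature microRNAs are RefSeq sequences of GRCh38.p14, matched by symbol.

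The genes named are the 10 largest increases and decreases among called genes with a mean log2 CPM over 1 and no overlap between groups, the 5 largest gains and losses of CPM, and from each gene list up to 4 called members with the largest change plus members whose role is described. The members and gene lists were chosen with earlier results of these data known. Alternatives were DESeq2 1.42.0, other normalizations, filters and thresholds, the replicate number as a block, a fit of all 24 libraries, the GC content and length correction, and leaving out each library. Each script that tests across genes was first tested on simulated counts. A few members of the gene lists are counted in the list totals but not reported here by name.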

Additional observations from a re-analysis of the deposited data

How the results depend on the processing

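Between 2591 and 3462 genes were upregulated and between 2719 and 3357 downregulated when 1 library was left out. At an adjusted p under 0.01 the numbers were 2002 and 2634, and under every other alternative both numbers stayed within 1.5 times the 3170 and 3676 reported. DESeq2 called 3552 and 3640 genes, library totals alone 3050 and 3464, and the GC content and length correction 2678 and 2571. Upregulated genes were 46.3% of calls in the reported fit and between 43.2% and 54.2% across the alternatives. Of 172 named genes that were called, 152 were called under every alternative that tested them. After the GC content and length correction *FUNDC1* and *PMAIP1* changed sign without being called (log2 fold changes 0.092 and 0.13, and 0.097 and 0.11 with the replicate block as well), and the cause was not tested.

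The labels do not say that the shared replicate numbers pair the libraries, so the reported fit took no pairing. Deviations of each replicate from the mean of its group were correlated across genes between hypoxia and normoxia. For replicates 1, 2 and 3 of the same number r was 0.289, 0.225 and 0.0706, and for differing numbers r ran from −0.307 to 0.0804. Each hypoxia replicate correlated best with the normoxia replicate of its number, whereas normoxia replicate 3 correlated best with hypoxia replicate 2 (r = 0.0804). A replicate block called 3653 genes upregulated and 4031 downregulated, and 3214 and 3010 together with the GC content and length correction.

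A group of 3 libraries of 1 cell line at a single time and oxygen level sets the limit of these comparisons. CPM values are shares of a library, so a fall of one group of genes against others does not give a fall in molecules per cell. Hypoxia replicate 3 had the fewest counts, and genes below the limit that 3 counts set (0.0454 to 0.124 CPM) could not be measured.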
